A study of Mus musculus and Homo sapiens
Mus musculus with 16 samples.

Results

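The homeobox genes Otx1 and Otx2 were examined in mouse fetal forebrain, in libraries made by PLAC-seq with H3K4me3. The members were chosen by name, and their interactions were the listed bin pairs in which either 10 kb bin overlapped the gene body in the mm10 build. Of 58543 bin pairs listed in any library, 33 belonged to Otx1 and 15 to Otx2, so 48 bin pairs carried these genes.

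PLAC-seq joins chromatin immunoprecipitation to proximity ligation, so it reports DNA contacts anchored at chromatin carrying a chosen histone mark. H3K4me3 marks active promoters. Otx1 and Otx2 encode homeodomain transcription factors related to Drosophila orthodenticle, which bind DNA around the core TAATCC. Otx2 is required for the anterior head, for placing the boundary between midbrain and hindbrain, and later for thalamus, choroid plexus and photoreceptors. Otx1 acts in the ventricular zone of the cortex and afterwards in deep-layer neurons.

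The series held 16 samples, of which 4 were analysed here: 2 libraries of whole fetal forebrain at embryonic stage E12.5, and another 2 taken at stage E16.5. The other 12 samples were not analysed here. All 4 used frozen tissue crosslinked with formaldehyde and MboI as the cutting enzyme, with no genotype or treatment stated, and the labels do not say whether the 2 libraries of a stage came from separate litters. P-values therefore measure only the spread between these libraries, which may be technical. The extraction text attached to E12.5 replicate 1 describes adult cortex, while its title, tissue and stage fields give fetal forebrain at E12.5. The group was taken from the title, and results that rest on this library are given with and without it.

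The lists held 18413 and 16075 interactions at E12.5, against 35291 and 36794 at E16.5, made of 405491 to 911710 read pairs. The lists spanned 20 to 1000 kb, held only interactions with a false discovery rate under 0.01 and a count at least 2 times the authors' expected count, and gave no sequencing depth. A bin pair that is not listed was therefore not called, and is not a count of 0. For the labelled tissue, all 5 telencephalon markers had listed interactions, with summed numbers of 152 and 162 at E12.5, against 157 and 147 at E16.5. In bulk tissue, fewer cells with a contact and a weaker contact in each cell cannot be told apart. Neither can be told apart from less H3K4me3 at the bins, whose level the lists do not give. Whether the mark differed between stages was not tested.

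Otx2 (gene ID 18424) lies at chr14:48656781-48667644 on the minus strand and spans 2 bins, starting at 48650001 and 48660001. RefSeq gives it 4 transcript starts, all inside the second bin, which also holds part of the divergent lncRNA Otx2os1. Otx1 (gene ID 18423) lies at chr11:21994764-22001651 and spans the bins starting at 21990001 and 22000001. Its first bin also holds the lncRNA Gm32517, whose start lies inside the Otx1 body, and its second bin holds an end of Ehbp1. At this bin size the contacts of Otx1 cannot be told apart from those of Gm32517 or the end of Ehbp1. Likewise the contacts of the second Otx2 bin cannot be told apart from those of Otx2os1.

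These 3 windows are printed to show sequence at gene starts inside the bins of both genes, the contacts themselves being measured between whole bins: 250 bases before the start and 50 after it, from RefSeq on GRCm38.p6, 5′ to 3′ on the strand of the gene. Capitals mark GATC, the MboI cutting site, and TAATCC or its reverse complement GGATTA, the core bound by OTX proteins. The RefSeq windows used held none for Otx1, so its promoter is not shown, and the Gm32517 window does not stand for it.
Otx2, outermost start, chr14:48667595-48667894, minus strand: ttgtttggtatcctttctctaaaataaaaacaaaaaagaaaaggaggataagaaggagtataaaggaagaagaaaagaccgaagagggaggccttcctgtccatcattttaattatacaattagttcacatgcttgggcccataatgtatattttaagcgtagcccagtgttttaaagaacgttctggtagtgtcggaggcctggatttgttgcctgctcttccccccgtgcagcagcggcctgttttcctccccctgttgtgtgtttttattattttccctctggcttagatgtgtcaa
Otx2, start at 48665109, chr14:48665060-48665359, minus strand: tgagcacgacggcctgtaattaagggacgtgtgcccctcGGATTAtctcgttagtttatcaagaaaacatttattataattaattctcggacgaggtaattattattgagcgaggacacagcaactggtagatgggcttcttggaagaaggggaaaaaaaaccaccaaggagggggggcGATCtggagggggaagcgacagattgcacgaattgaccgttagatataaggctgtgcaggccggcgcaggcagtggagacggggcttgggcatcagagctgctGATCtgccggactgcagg
Gm32517, inside Otx1, chr11:21998249-21998548, plus strand: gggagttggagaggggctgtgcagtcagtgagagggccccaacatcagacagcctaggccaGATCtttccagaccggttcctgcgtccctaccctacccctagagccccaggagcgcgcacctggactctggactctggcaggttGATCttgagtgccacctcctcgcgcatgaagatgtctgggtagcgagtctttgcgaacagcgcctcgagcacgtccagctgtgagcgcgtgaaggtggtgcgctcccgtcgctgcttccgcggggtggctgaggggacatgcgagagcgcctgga

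The outermost Otx2 window held 6 CpG dinucleotides and no GATC. The Otx2 window at 48665109, chosen after its matches were seen, held 16 CpG, 2 GATC and 1 GGATTA, and the Gm32517 window held 20 CpG and 2 GATC. The windows of the Otx2 starts not printed, at 48667508 and 48662734, held 8 and 11 CpG and neither motif. Over 32851 RefSeq windows of this length the median was 7 CpG, 48.0% held GATC and 7.06% held TAATCC on either strand. GATC and the OTX core cannot overlap, and each match is a description of letters only.

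Both genes had more listed interactions at E12.5 than at E16.5. Otx1 had 18 and 18 listed interactions at E12.5, against 13 and 6 at E16.5. Otx2 had 11 and 6 at E12.5, against 1 and 0 at E16.5. For each gene the stages did not overlap, although the E16.5 lists were longer. Per 10000 listed interactions, Otx1 stood at 9.78 and 11.2 at E12.5 and at 3.68 and 1.63 at E16.5. On the same scale Otx2 stood at 5.97 and 3.73 at E12.5 and at 0.283 and 0 at E16.5.

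**Figure D1:**
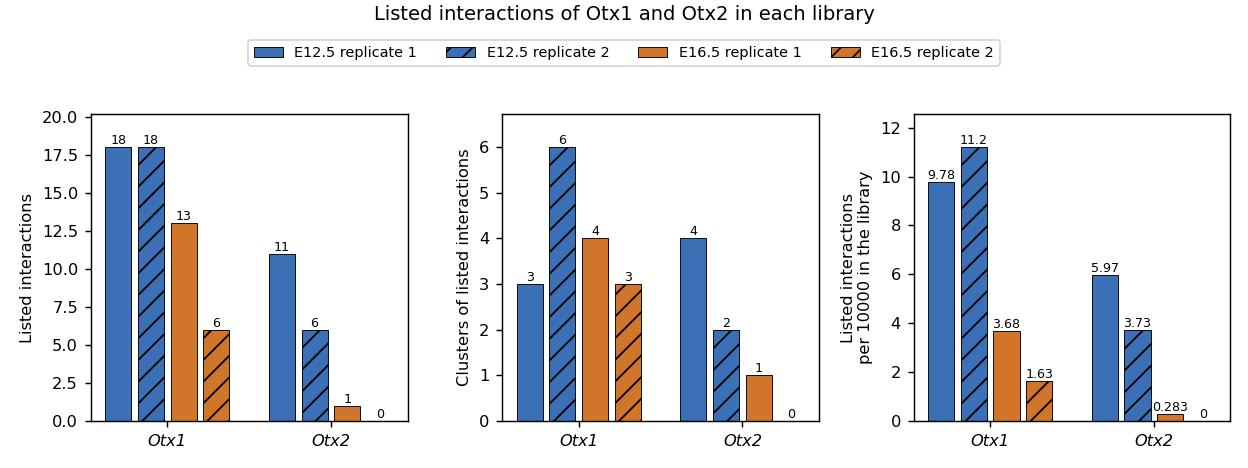
Listed interactions, clusters of neighbouring listed interactions as numbered in the deposited lists, and listed interactions per 10000 in the library, for Otx1 and Otx2 in each of the 4 libraries; bars are single libraries (blue E12.5, orange E16.5, hatched replicate 2). Otx1 goes from 18 and 18 interactions to 13 and 6 and Otx2 from 11 and 6 to 1 and 0, while the Otx1 clusters (3, 6, 4 and 3) overlap between stages.

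The number of listed interactions of Otx1 was 18 ± 0 (SD, n = 2) at E12.5 and 9.5 ± 4.95 at E16.5. Its log2 change from E12.5 to E16.5 was -1.75 (SE 0.37), or 3.37-fold lower at E16.5 after scaling (edgeR quasi-likelihood test, adjusted p = 0.00705). Otx2 had 8.5 ± 3.54 (SD, n = 2) at E12.5 and 0.5 ± 0.707 at E16.5, with a log2 change of -4.55 (SE 0.83, edgeR adjusted p = 0.00340). This edgeR change is 23.4-fold. A separate estimate, the ratio of summed Otx2 numbers over scaled library totals, was 30.6 with a 95% exact interval of 4.80 to 1279. It rests on 1 interaction at E16.5 against 17. The interval belongs to that ratio, covers counting error only and treats neighbouring interactions as independent. Both genes were thus called lower, against 3.49% of the 4035 genes tested (141 genes), while 10.8% (435 genes) were called higher. Genes were tested if their interactions summed to at least 10 over the libraries. Otx1 reached this at either stage, but Otx2 only through E12.5, so its call and its rank hold among genes so selected. Other genes named below with few or no interactions at 1 stage entered in the same way.

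Across the tested genes, 1.86% had a more negative change than Otx1 and 0.0991% a more negative change than Otx2. The median log2 change over tested genes was 0.25. Raw numbers fell from E12.5 to E16.5 without overlap, as for Otx1 and Otx2, in 3.4% of tested genes, and the opposite for 64.5%. The share of tested genes with fewer interactions than Otx1 was 94.0% and 94.6% in the E12.5 libraries, 75.5% in E16.5 replicate 1 and 30.1% in E16.5 replicate 2. For Otx2 it was 85.4% and 70.4% at E12.5, then 0.545% and 0% at E16.5.

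Both calls ended without E12.5 replicate 1, while the changes kept their direction. In that fit, where the remaining E12.5 library is assumed to vary like the E16.5 libraries, the adjusted p was 0.251 for Otx1 (log2 change -1.82) and 0.239 for Otx2 (-4.15), and the edgeR test called 0 genes anywhere, with 747 at an unadjusted p under 0.05. With DESeq2 the adjusted p was 0.0677 for Otx1 and 0.0784 for Otx2.

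**Figure D2:**
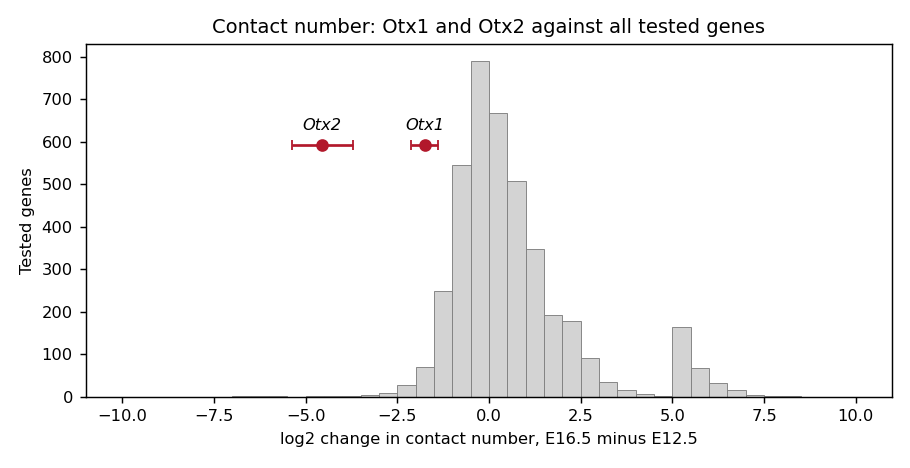
Distribution of the log2 change in the number of listed interactions from E12.5 to E16.5 over the 4035 genes tested, as genes per bin of the histogram, with Otx1 and Otx2 as points with bars of 1 SE, whose height has no meaning. Otx1 (-1.75) and Otx2 (-4.55) lie left of the median of 0.25; 288 of the tested genes had no listed interaction at E12.5 and form the right-hand mound, where the fitted value is no measure of size.

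Counted as clusters, in which neighbouring listed interactions stand once, Otx1 had 3 and 6 clusters at E12.5, against 4 and 3 at E16.5, so the stages overlapped. Its log2 change in clusters was -0.96 (edgeR adjusted p = 0.892). Otx2 had 4 and 2 clusters at E12.5, against 1 and 0 at E16.5, with a log2 change of -2.88 (edgeR adjusted p = 0.347). With clusters counted once, 0 genes of any kind were called by edgeR, with 413 at an unadjusted p under 0.05. The Otx1 interactions were made of 592 and 464 read pairs at E12.5, against 237 and 100 at E16.5. Those of Otx2 were made of 269 and 90 read pairs at E12.5, against 15 and 0 at E16.5.

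The partner bins of Otx1 formed 6 regions of 21 bins on both sides of the gene. Of these bins, 19 lay in the body of a protein-coding gene, either Wdpcp on the lower-coordinate side or Ehbp1 on the higher side. None held a gene start among the RefSeq windows, but these windows lack some genes, Otx1 among them. The pseudogene Pgam1-ps1 lay within the bin starting at 21680001, and its start had no window. Wdpcp encodes a planar cell polarity effector needed for primary cilia, and Ehbp1 an EH-domain-binding protein of endocytic trafficking. The partner bins of Otx2 formed 4 regions of 11 bins, all on the higher-coordinate side and none in a protein-coding body. One of them held a start among the RefSeq windows, that of the lncRNA Gm41149, and 4 held no gene of the RefSeq gene table. The lncRNA Gm36024 lay within the bin starting at 48980001, and its start had no window.

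The Otx1 partner region nearest the gene was listed at E12.5 alone. It covered chr11:22060001-22090000 inside Ehbp1, 60 kb from the gene, and had 5 and 3 interactions at E12.5, made of 296 and 153 read pairs, and none at either E16.5 library. Within it the bin starting at 22070001 carried 145 and 62 read pairs and the bin starting at 22080001 carried 108 and 91. The read pairs of a partner bin sum its listed pairs with either Otx1 bin, so a pair not listed adds none. The contact of the second Otx1 bin with the bin at 22070001, at 70 kb, had 78 and 62 read pairs, 3.51 and 2.65 times expected.

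The region at chr11:22180001-22240000, further inside Ehbp1, was listed in every library, with 7 and 9 interactions at E12.5, against 5 and 3 at E16.5. Its read pairs were 179 and 211 at E12.5, against 107 and 59 at E16.5. Its bin starting at 22200001 carried the most read pairs of any Otx1 partner bin summed over the 4 libraries (243), with 65 and 76 at E12.5, against 58 and 44 at E16.5. The neighbouring bin at 22190001 carried 49 and 42 at E12.5, against 13 and 15 at E16.5, which sum unlike sets of listed pairs. Its pair with the first Otx1 bin had 24, 23 and 13 in the first 3 libraries and was not listed in E16.5 replicate 2. Its pair with the second Otx1 bin had 25 and 19 at E12.5. That pair had 15 in E16.5 replicate 2 and was not listed in E16.5 replicate 1. The bin at 22220001 carried 43, 19 and 20 in the first 3 libraries and was not listed in E16.5 replicate 2.

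On the other side, the region at chr11:21660001-21730000 inside Wdpcp had 6 and 2 interactions at E12.5, against 6 and 1 at E16.5. Its read pairs were 117 and 49 at E12.5, against 103 and 19 at E16.5, so here the stages overlapped and the replicates of each stage lay far apart. Its bin starting at 21660001 carried 53 and 28 read pairs at E12.5, against 21 and 19 at E16.5. Of the 53, 27 came from its pair with the second Otx1 bin, which was listed in E12.5 replicate 1 alone. The bins from 21700001 to 21730000 were partners in E16.5 replicate 1 alone. The smaller Wdpcp regions were chr11:21630001-21650000, listed in E12.5 replicate 2 and E16.5 replicate 1 with 2 interactions each, and chr11:21590001-21600000, listed in E16.5 replicate 2 alone with 2 interactions. The most distant region, chr11:22610001-22630000 at the lncRNA Gm12052, had 2 interactions in E12.5 replicate 2 alone.

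By side, Otx1 had 12 and 14 interactions toward Ehbp1 at E12.5, against 5 and 3 at E16.5. Toward Wdpcp it had 6 and 4 at E12.5, against 8 and 3 at E16.5, where the stages overlapped. The difference between the sides was not tested, and no share of genes with a change on a single side was computed.

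**Figure D3:**
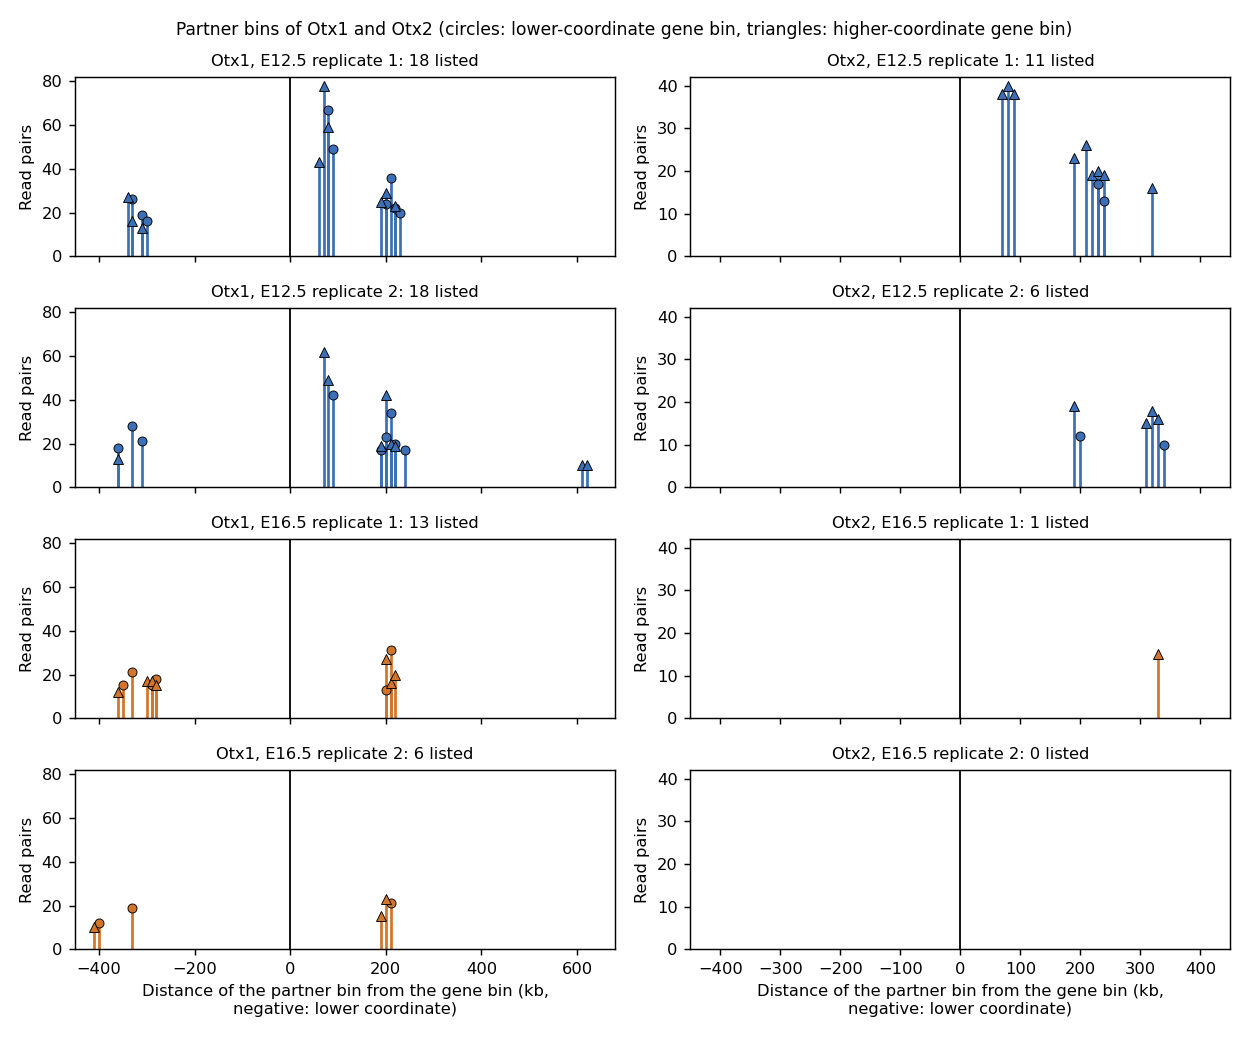
Read pairs of each listed interaction of Otx1 (left) and Otx2 (right) plotted against the distance of the partner bin from the gene's bin in kb, 1 row of panels for each library; circles mark the lower-coordinate bin of the gene, triangles the higher; negative distances are on the lower-coordinate side. The Otx1 contacts at 60 to 90 kb appear in both E12.5 panels and in neither E16.5 panel, the contacts near 200 kb appear in all 4, and Otx2 has 1 point at E16.5.

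For Otx2 the 4 regions differed in how far the E12.5 libraries shared them. The region at chr14:48730001-48760000, inside Otx2os1, had 3 interactions and 116 read pairs in E12.5 replicate 1 alone. All of these were with the second Otx2 bin, which also overlaps Otx2os1, so they may be contacts within Otx2os1. The region at chr14:48870001-48910000, over the lncRNAs Gm46454, Gm534 and 4933429O19Rik, had 6 interactions and 114 read pairs in that library alone. The bin at chr14:48850001-48860000, with the start of Gm41149, had 1 and 2 interactions at E12.5, made of 23 and 31 read pairs. The region at chr14:48970001-49000000, at the lncRNA Gm36024, had 1 and 4 interactions at E12.5 and 1 in E16.5 replicate 1, made of 16, 59 and 15 read pairs.

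Thus 9 of the 11 Otx2 interactions of E12.5 replicate 1 lay in regions that replicate 2 did not list. A pair of Otx2 contacts was listed in both E12.5 libraries: the one at 190 kb had 23 and 19 read pairs, and the one at 320 kb had 16 and 18. The single Otx2 contact listed at both stages joined the bin of the starts to the bin starting at 48990001, at 330 kb. It had 16 read pairs in E12.5 replicate 2, 3.29 times expected, and 15 in E16.5 replicate 1, 3.52 times expected.

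Of the 33 Otx1 bin pairs, 17 (51.5%) were listed at E12.5 alone, 8 (24.2%) at E16.5 alone and 8 at both stages. Of the 15 Otx2 bin pairs, 14 (93.3%) were listed at E12.5 alone, none at E16.5 alone and 1 at both. Among all 58543 bin pairs, 12.4% were listed at E12.5 alone, 57.3% at E16.5 alone and 30.4% at both. Listing in a single library was common: it held for 20 of the Otx1 pairs (60.6%), for 12 of the Otx2 pairs (80%) and for 52.6% of all pairs. Listed in both E12.5 libraries and in neither at E16.5 were 5 Otx1 pairs (15.2%) and 2 Otx2 pairs (13.3%), against 1.83% of all pairs. The opposite, both E16.5 libraries and neither at E12.5, held for no Otx1 or Otx2 pair and for 15.2% of all pairs.

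The 3 Otx1 contacts listed in all 4 libraries allowed their strength, in read pairs, to be compared between stages. The first joined the first Otx1 bin to chr11:21660001-21670000 in Wdpcp, at 330 kb, with 26 and 28 read pairs at E12.5, against 21 and 19 at E16.5. The second joined the same Otx1 bin to chr11:22200001-22210000 in Ehbp1, at 210 kb, with 36 and 34 read pairs at E12.5, against 31 and 21 at E16.5. The third joined the second Otx1 bin to that Ehbp1 bin, at 200 kb, with 29 and 42 read pairs at E12.5, against 27 and 23 at E16.5. All 3 contacts had lower read pair counts in each E16.5 library than at E12.5. The share of all contacts listed in all 4 libraries with that order was not computed. They share bins, and so are not separate pieces of evidence.

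After scaling, the Ehbp1 contact at 200 kb changed by -0.87 on the log2 scale (SE 0.27, edgeR adjusted p = 0.0304) and the one at 210 kb by -0.79 (SE 0.27, adjusted p = 0.0466). The Wdpcp contact gave -0.79 (SE 0.28, edgeR adjusted p = 0.0650), which did not pass. Of the 6875 contacts tested, 4.58% were called lower and 5.88% higher. With DESeq2 neither Ehbp1 contact passed (adjusted p = 0.307 and 0.371). For the contact at 200 kb the edgeR adjusted p was 0.471 when E12.5 replicate 2 was left out, and 0.0822 or 0.145 on leaving out the first or second E16.5 replicate. For the one at 210 kb it was 0.220 and 0.190 without E12.5 replicate 1 or 2, and 0.336 without E16.5 replicate 2.

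The authors' expected counts for these contacts were also lower at E16.5, by -0.19, -0.35 and -0.20 on the log2 scale, against a median of 0.23 over all 6875 contacts. Set against those expected counts, the Wdpcp contact was 4.69 and 5.68 times expected at E12.5, against 4.15 and 4.64 times at E16.5. The Ehbp1 contact at 210 kb was 4.31 and 5.03 times expected at E12.5, against 4.61 and 4.06 times at E16.5. The one at 200 kb was 3.80 and 6.52 times expected at E12.5, against 3.90 and 4.33 times at E16.5. For the Wdpcp contact the highest E16.5 ratio lay just under the lower E12.5 ratio, and for the Ehbp1 contacts the stages overlapped. With the expected count as an offset the log2 changes were -0.24, -0.09 and -0.31 (edgeR adjusted p = 0.814, 0.943 and 0.750), and neither call held. What in the expected model moved with stage was not tested.

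**Figure D4:**
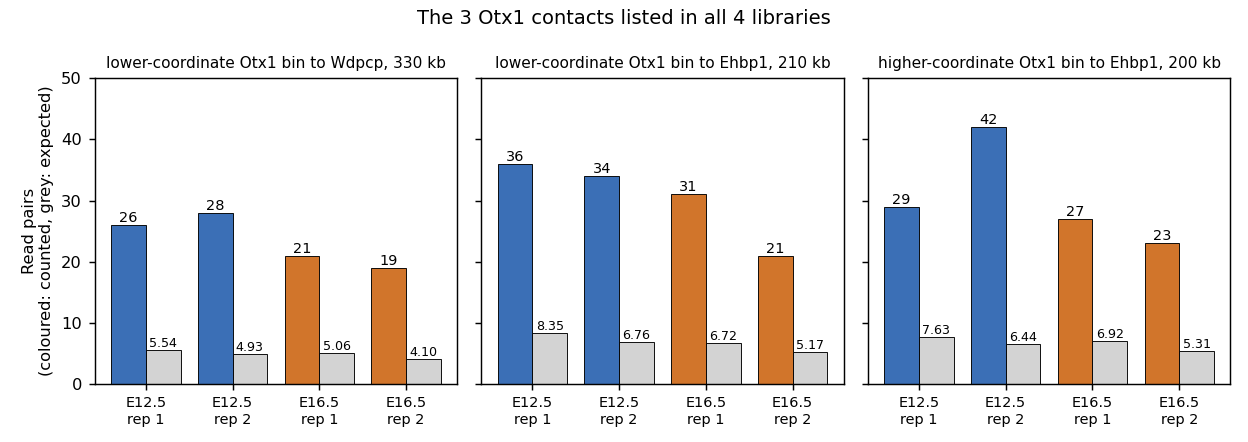
Read pairs counted (coloured bars, blue E12.5 and orange E16.5) and expected by the authors' model (grey bars) for the 3 Otx1 contacts listed in all 4 libraries, 1 bar pair per library, with no error bars since each bar is 1 library. Counted read pairs are lower in both E16.5 libraries in every panel, and the expected bars also differ between libraries. The panels share bins, and the share of all contacts listed in all 4 libraries with that order was not computed.

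Over all listed Otx1 interactions, the median ratio of count to expected was 3.51 and 3.70 at E12.5, against 3.65 and 4.13 at E16.5. The medians over the whole lists were 3.99, 4.02, 3.96 and 4.03 in the same order. The Otx2 medians were 3.23 and 3.21 at E12.5, and its 1 interaction at E16.5 stood at 3.52. The listed contacts of both genes were thus near or below the typical ratio of their libraries, except Otx1 in E16.5 replicate 2.

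The median distance of the Otx1 interactions was 215 kb in both E12.5 libraries and 280 and 270 kb at E16.5. The shortest lay at 60 and 70 kb at E12.5 and at 200 and 190 kb at E16.5. The medians differed by 60 kb without overlap (2-sided exact permutation test, p = 0.3333, the smallest that 2 against 2 libraries allow). With all lists cut to equal length the Otx1 difference was 0 kb, so its direction was lost. Over the whole lists the median distance was 260 kb in both E12.5 libraries, against 300 and 290 kb at E16.5. The whole lists thus also lengthened without overlap, and the Otx1 difference was not tested against theirs. The Otx2 medians were 220 and 315 kb at E12.5 and 330 kb in the 1 E16.5 library with a value (exact permutation p = 0.667).

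Interactions around the genes were counted as a background. Interactions with both bins within 1 Mb of Otx1, and neither of them its own, numbered 4 and 0 at E12.5, against 8 and 12 at E16.5. Interactions that reached out of this window were left out, among them all 14 of the neighbour Cct4 in E12.5 replicate 2. Within 1 Mb of Otx2 the same count was 12 and 3 at E12.5, against 8 and 10 at E16.5. For Otx1 these interactions within the window were higher in both E16.5 libraries, as were the raw numbers of 64.5% of tested genes, and for Otx2 the stages overlapped. Per 10000 listed interactions they stood at 2.17, 0, 2.27 and 3.26 around Otx1 and at 6.52, 1.87, 2.27 and 2.72 around Otx2, in the order of the libraries. The difference between each gene and its surroundings was not tested.

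Of 11 protein-coding neighbours of Otx1 within 1 Mb, 5 had enough interactions to test. Ehbp1 had 16 and 15 interactions at E12.5, against 13 and 8 at E16.5 (log2 change -1.40, SE 0.35, edgeR adjusted p = 0.0168). Of these, 15, 15, 9 and 4 were shared with Otx1, so its value is not a separate observation. Wdpcp had 6 and 4 at E12.5, against 8 and 3 at E16.5 (edgeR adjusted p = 0.506), all of them with Otx1. Zrsr1, an imprinted gene within Commd1 that encodes a splicing factor relative, had 0 and 0 at E12.5, against 4 and 8 at E16.5 (edgeR adjusted p = 0.0498). Its bin also lies in Commd1, so all its interactions count for Commd1 too and are not a separate observation. Commd1 (5, 3, 12 and 16; adjusted p = 0.249) and Cct4 (12, 14, 17 and 15; adjusted p = 0.369) did not pass the edgeR test. Of the 8 neighbours of Otx2, Peli2 alone could be tested, with 1 and 3 interactions at E12.5, against 5 and 8 at E16.5 (edgeR adjusted p = 0.520).

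Among 24 paired-class homeobox genes, the wider family of Otx1 and Otx2, 1 was not matched to the gene table and 10 had no listed interaction in any library. These included Crx, the photoreceptor gene closest in sequence to the Otx pair, and Gsc and Hesx1, which act in the early head. The list leaves out Otx1 and Otx2. Of its 8 tested genes, 1 fell and none rose, with a median log2 change of -0.48 against 0.25 over all tested genes, of which 3.49% were called lower. The list's median was -0.076 without E12.5 replicate 1, -0.80 without E12.5 replicate 2 and -0.90 when the first E16.5 replicate was left out. The gene that fell was Otp, a hypothalamic factor, with 13 and 6 interactions at E12.5, against 5 and 2 at E16.5 (4.72-fold lower at E16.5, edgeR adjusted p = 0.0167).

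Among 22 anterior neural patterning genes, 17 were tested, 13 fell and none rose, with a median log2 change of -1.07, where 3.49% of all tested genes were called lower. Emx2, which patterns the caudal cortex, had 85 and 99 interactions at E12.5, against 65 and 70 at E16.5 (edgeR adjusted p = 0.000512). Lhx2, a cortical selector gene, had 100 and 99 at E12.5, against 78 and 91 at E16.5 (edgeR adjusted p = 0.000605). Pax6, which specifies eye and dorsal forebrain progenitors, had 41 and 34 at E12.5, against 24 and 14 at E16.5 (3.53-fold lower, edgeR adjusted p = 0.00136). The others with the smallest p were Fezf1 (10, 10, 2 and 2), Sp8 (36, 28, 23 and 20) and Six3 (64, 67, 68 and 55), of which Six3 overlapped between stages in raw numbers. Raw numbers were lower at E16.5 without overlap for 5 of the 17 and higher for 3, against 3.4% and 64.5% of all tested genes.

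Among 21 genes of the isthmus and the boundary between midbrain and hindbrain, where Otx2 abuts Gbx2, 13 were tested, 3 fell and none rose. The median log2 change was -0.55, and 3.49% of all tested genes were called lower. In raw numbers 1 gene was lower at E16.5 without overlap and 5 were higher, and the list summed to 168 and 118 at E12.5, against 170 and 156 at E16.5. Gbx2, the hindbrain-side antagonist of Otx2, had 13 and 7 interactions at E12.5, against 8 and 5 at E16.5 (edgeR adjusted p = 0.0439), and its stages overlapped. The others were Irx3 (34, 18, 18 and 9) and Pax2 (18, 12, 10 and 9).

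Of 18 genes known as OTX targets or partners, 10 were tested, 4 fell and none rose after scaling, with a median log2 change of -0.81, where 3.49% of all tested genes were called lower. In raw numbers 1 gene was lower at E16.5 without overlap and 3 were higher, and the list summed to 276 and 285 at E12.5, against 319 and 309 at E16.5. The 4 called were Sox2, a neural progenitor factor (59, 61, 63 and 49), Hes1, a Notch effector (31, 33, 26 and 25), Tle3, a Groucho corepressor (58, 68, 63 and 69), and Lhx1 (26, 29, 24 and 27). Hes1 alone of the 4 fell without overlap in raw numbers, and the raw numbers of Sox2, Tle3 and Lhx1 overlapped between stages, so that Tle3, whose raw sum was higher at E16.5, was lower only after scaling.

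Of 23 genes of the cortical hem and choroid plexus, 5 were tested and none passed the edgeR test. Their median log2 change was -1.01, and it turned positive with a minimum sum of 20 (0.49) or a stricter false discovery rate (0.45). Msx2 had 9 and 8 interactions at E12.5, against 6 and 5 at E16.5 (edgeR adjusted p = 0.0504), and Msx1 had 5, 3, 3 and 0 (adjusted p = 0.174). Both are BMP-induced factors of the dorsal midline.

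Of 15 deep-layer neuron genes, 12 were tested, 6 rose, none fell and 6 did not pass, with a median log2 change of 1.55, where 10.8% of all tested genes were called higher. All 12 had higher raw numbers at E16.5 without overlap, as did 64.5% of all tested genes. Tbr1, the layer 6 determinant, had 5 and 5 interactions at E12.5, against 43 and 36 at E16.5 (edgeR adjusted p = 0.00212). Sox5 had 1 and 1 at E12.5, against 34 and 28 at E16.5 (edgeR adjusted p = 0.000816). Zfpm2 had none at E12.5, against 22 and 15 at E16.5 (edgeR adjusted p = 0.00188). The others were Bhlhe22 (3, 1, 32 and 18), Tshz3 (20, 28, 82 and 87) and Rprm (4, 3, 22 and 21). Otx1, itself known as a deep-layer gene, had lower raw numbers at E16.5.

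The gene and marker lists overlap: 30 of 140 genes are in more than 1. Without E12.5 replicate 1 no gene of any list passed the edgeR test, since none did anywhere. With DESeq2, 3 of the anterior patterning genes, 1 isthmus gene and no target, partner or paired-class gene were called lower, and 4 deep-layer genes were called higher. Of the markers given next, DESeq2 called 3 of diencephalon, 1 of telencephalon and none of midbrain, isthmus or neurons. With all interaction lists cut to equal length, edgeR called 1 deep-layer gene higher, 1 diencephalon marker lower and no other listed gene or marker. Over all genes that setting called 13 higher and 7 lower. The median log2 changes kept their sign, at -1.03 for anterior patterning, 0.90 for deep-layer and -2.17 for diencephalon genes.

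All 7 diencephalon markers were tested, 6 fell and none rose, where 3.49% of all tested genes were called lower, and their summed interactions were 145 and 119 at E12.5, against 78 and 57 at E16.5. Those that fell were Tcf7l2 (29, 41, 20 and 9), Lef1 (25, 29, 11 and 18), Irx3, Barhl2 (16, 14, 11 and 9), Gbx2 and Sim1, which had 16 and 2 at E12.5 and none at E16.5. Of 8 midbrain and isthmus markers, 5 were tested and 3 fell, Pax7 among them (13, 7, 3 and 1), with summed interactions of 57 and 34 at E12.5, against 45 and 30 at E16.5. Of the 5 telencephalon markers, all tested, 2 fell, Emx2 and Dlx2 (19, 17, 16 and 12), with a median log2 change of -0.84. The part of tissue makeup in the Otx1 and Otx2 results was not tested.

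Other markers were sparse. The 7 choroid plexus markers summed to 1 and 3 interactions at E12.5, against 5 and 5 at E16.5, with Ttr, Clic6 and Aqp1 at none. The 6 eye and retina markers summed to 13 and 3 at E12.5, against 5 and 2 at E16.5, with Crx and Mitf at none. The 4 neuron markers summed to 10 and 12 at E12.5, against 47 and 47 at E16.5, and Rbfox3 rose (9, 12, 43 and 41; edgeR adjusted p = 0.0200). The 5 markers of meninges and mesenchyme summed to 16 and 17 at E12.5, against 24 and 11 at E16.5. The 4 endothelial markers summed to 0 and 0 at E12.5, against 1 and 0 at E16.5, and the 3 microglial markers to 2, 2, 1 and 2.

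The genes whose numbers over the 4 libraries were most like those of each member were found by Euclidean distance between log2 numbers scaled between libraries by TMM. For Otx1 the nearest was Hoxb5, with 21 and 16 interactions at E12.5, against 12 and 5 at E16.5 (distance 0.329). It was followed by Tnfsf12 and Tnfsfm13, which share bins (15, 19, 15 and 8; 0.429), Rab11fip2 (17, 18, 13 and 9; 0.436) and Dcdc5 (24, 16, 10 and 6; 0.521). For Otx2 the nearest was Pax3, a dorsal neural tube factor, with 9 and 4 at E12.5, against 1 and 0 at E16.5 (0.520). It was followed by Olig2 (8, 7, 2 and 0; 0.569), Phc2 (6, 6, 1 and 0; 0.740) and the neighbours Hoxa10 and Hoxa11 (8, 4, 0 and 0; 0.776). Like Otx2, these genes and Pax3 reached the sum of 10 needed for testing only through E12.5.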

How the data were processed

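H3K4me3 PLAC-seq lists of 4 fetal forebrain libraries were used, grouped by title. Alignment with BWA and SAMtools to mm10 is given in the submitters' processing notes, and for the interaction caller and its model the entry is: not given in the sources used here. The deposited lists give, per pair of 10 kb bins, the count of read pairs, the authors' expected count (a modelled signal), a false discovery rate (a q-value), a cluster number and a −log10 p-value of each cluster, per the file headers. Sequencing depth is unknown.

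Computed here: bins were matched to gene bodies in RefSeq GRCm38.p6 (the mm10 primary sequence), giving each of 20661 autosomal protein-coding genes a number of listed interactions per library. Genes with a sum of at least 10 (4035) were tested between stages with edgeR 4.0.16 (quasi-likelihood, TMM, R 4.3.3, Benjamini-Hochberg threshold 0.05). The 6875 bin pairs listed in all 4 libraries were tested likewise on read pairs. Median distances were compared by exact permutation. DESeq2 1.42.0 and other settings were alternatives. The pipeline was tested on simulated data.

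The members and lists were chosen with earlier results of these data known. Named were the members, partner-bin genes, list genes past the threshold (at most 6 per list, otherwise the 2 with smallest p), called neighbours within 1 Mb and the 5 most alike genes per member (prior count 2, none sharing a bin or within 2 Mb). Other tested neighbours were named after their values were seen.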

Additional observations from a re-analysis of the deposited data

How the results depend on the processing

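The direction of the change in the number of listed interactions stayed negative for Otx1 (-2.68 to -0.96) and Otx2 (-6.47 to -2.88) under every alternative run, and the adjusted p did not stay under 0.05. The Otx1 log2 change no longer passed with DESeq2 (-1.72), clusters (-0.96), read pair sums (-2.68, edgeR adjusted p = 0.0826) or distinct bins in place of genes (-1.55, adjusted p = 0.0918). The Otx2 change no longer passed with DESeq2 (-4.88), lists cut to equal length (-5.97, edgeR adjusted p = 0.0830), a false discovery rate under 0.0001 (-4.59, adjusted p = 0.0857), clusters (-2.88), read pairs (-5.55, adjusted p = 0.150), contacts of at most 200 kb (-4.90, adjusted p = 0.124) or distinct bins (-4.06, adjusted p = 0.0556). Otx2 could not be tested with a minimum sum of 20. Leaving out 1 library at a time gave -2.44 to -1.29 for Otx1 and -6.47 to -3.70 for Otx2, and both calls ended without E12.5 replicate 1.

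Genes called higher and lower numbered 435 and 141. They numbered 70 and 27 with DESeq2, 13 and 7 with equal lists, 214 and 77 with the stricter false discovery rate, 99 and 25 within 200 kb, and 110 and 34 with distinct bins. With clusters and with read pairs the edgeR test called 0 and 0 (413 and 992 genes at an unadjusted p under 0.05). The lower count was 212 with library totals in place of TMM (433 higher) and 231 with bodies extended by 10 kb (510 higher). Leaving out 1 library gave 0 to 274 higher and 0 to 115 lower, with 0 called by edgeR without E12.5 replicate 1.

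Contacts called higher and lower in strength numbered 404 and 315. They numbered 59 and 39 with DESeq2, and 18 and 0 by edgeR with the expected count as an offset (808 at an unadjusted p under 0.05). Leaving out 1 library gave 132 to 317 higher and 142 to 220 lower. The Ehbp1 contact at 210 kb also missed the threshold within distance bins (edgeR adjusted p = 0.0687), and the Wdpcp contact passed it when contacts averaging under 20 read pairs were left out (adjusted p = 0.0423). The Otx1 difference in median distance was 0 kb with equal lists, 27.5 kb with the stricter false discovery rate and 55 to 65 kb when 1 library was left out. The Otx2 difference ranged from 15 to 110 kb.

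The replicate numbers are shared between stages, but nothing in the labels ties them to a litter or day, and replicate differences correlated by 0.0840 across genes and by 0.126 across contacts, from only 2 numbers. With the replicate block the log2 change was -1.74 for Otx1 and -4.52 for Otx2, with 355 genes called higher and 139 lower, and 532 contacts higher and 407 lower. The lists hold called pairs alone, so a contact under the calling threshold has no value, and for Otx2 at E16.5 nothing finer than its numbers of 1 and 0 can be said.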
